A study of Mus musculus with 44 samples.

Results

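Glycolysis and the response to low oxygen were followed through 34 genes chosen by symbol from the count table, which holds 46831 genes. All 34 were found and all 34 passed the filter on low counts in the comparison of the WT populations. They comprise 2 glucose transporters, 2 hexokinases, 7 enzymes of upper glycolysis, 6 of lower glycolysis, 3 enzymes that act on pyruvate and lactate, 2 phosphofructokinase 2 regulators, 2 lactate transporters, 2 HIF alpha subunits, 2 HIF prolyl hydroxylases, 4 further hypoxia response targets and 2 membrane carbonic anhydrases.

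Glycolysis breaks glucose down to pyruvate in the cytosol, and lactate dehydrogenase turns pyruvate into lactate where it is not passed to mitochondria. HIF1A and EPAS1 are transcription factor subunits that prolyl hydroxylases (the Egln genes) mark for destruction when oxygen is present, so that HIF target genes, among them most glycolytic enzymes, are turned on when oxygen is scarce. The growth plate of young bone has no blood vessels, and its chondrocytes are known to depend on HIF1A and on glycolysis. N6-methyladenosine (m6A) is a methyl mark on mRNA that METTL3 writes and that is known to affect mRNA decay and translation.

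The series measured mRNA and m6A in skeletal stem cells and their descendants sorted from the lower limbs of C57BL/6J mice at postnatal day 3, regardless of sex, after cells carrying CD45, Ter119 or Tie2 were excluded. SLIM-seq enriches RNA with an m6A antibody (IP) and sequences it beside RNA that was not enriched (input). Of the 44 libraries, 32 are WT, with 2 IP and 2 input for each of 8 populations, namely SSC, pre-BCSP, BCSP, pro-chondrogenic progenitors (PCP), THY, BLSP, 6C3 and HEC. The other 12 are labelled Mettl3cko, with 2 IP and 2 input for SSC, pre-BCSP and BCSP alike. They are from Mettl3 fl/fl mice with Col2a1-Cre, a Cre driven in chondrocytes and their progenitors. The controls that the paper calls WT are Mettl3 fl/fl mice. The labels of the WT libraries read wild type and do not say whether these came from fl/fl mice or from littermates. SSC, pre-BCSP and BCSP are called stem and progenitor populations here and the other 5 downstream populations. Every library is given as wild type in its genotype field, so the titles and the column names of the count table mark these 12. The labels do not say whether the 2 replicates of a group came from different animals, so p-values measure the spread between those libraries.

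Total counts were 19795666 to 44046651 in WT input, 16480027 to 35856651 in WT IP, 30050178 to 35325482 in Mettl3cko input and 22056571 to 33126857 in Mettl3cko IP libraries. The members took 0.490% to 0.963% of the counts of a WT input library. Replicate libraries correlated across genes, on log2 counts scaled to the library, at 0.945 to 0.983 in WT input, 0.837 to 0.945 in WT IP, 0.902 to 0.940 in Mettl3cko input and 0.653 to 0.690 in Mettl3cko IP. Summed osteoblast markers (Bglap, Sp7, Ibsp, Dmp1 and Col1a1) were at 5049 to 11140 CPM (counts scaled to the library total) in the WT stem and progenitor libraries and at 66165 to 146624 in the downstream ones, while summed chondrocyte markers (Col2a1, Acan, Sox9, Col9a1 and Matn1) were at 84410 to 100505 and 6966 to 97164. In the libraries named for pro-chondrogenic progenitors the chondrocyte sum was 15690 to 19435, against 76383 to 97164 in HEC. Endothelial markers summed to 68.1 and 70.7 CPM in the PCP libraries and to at most 18.9 in any other WT library, although the sort excluded Tie2, an endothelial receptor. Stromal markers summed to 67.0 to 141 CPM in WT stem and progenitor libraries and 205 to 2501 in downstream ones. They were at 1269 and 2501 in PCP and at most 671 in any other population. Hypertrophic chondrocyte markers were at 789 and 5016 in PCP and at most 1330 in any other WT library. Neuron and glia markers were at 658 and 678 in BLSP, 74 and 159 in PCP, and at most 18.3 in any other WT library. Skeletal muscle markers (Ckm, Acta1, Myh3, Mylpf and Tnnt3) summed to 26.5 to 57.0 CPM in WT stem and progenitor libraries and 8.13 to 16.1 in downstream ones, with 0 to 2 of the 5 at 0 in a library. Erythroid markers summed to 0.702 to 5.64 CPM in WT stem and progenitor libraries and to 17.8 to 148 in downstream ones. The part of these cell type differences in the results was not tested, and in bulk libraries fewer cells of a type cannot be told apart from less RNA per cell.

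HIF binds DNA at a short core, ACGTG or GCGTG. The members' promoters were read for ACGTG, called the core from here on, because the results below turn on genes known as HIF targets. RefSeq (GRCm38.p6) lists a promoter, 250 bases before to 50 after the start, for 31 of the 34 members. On either strand the core lay in the promoters of 21 of these 31 genes (67.7%), against 21.8% of 27025 genes and 19.6% of 32851 promoters. The members were chosen as genes of these pathways, and the 27025 genes were not limited to expressed ones. The shares are thus a description. GCGTG lay in 32.4% of the 32851 promoters and either form in 43.8%. Members with GCGTG were not counted, so the share of members covers ACGTG only. The 8 windows shown, written in the direction of the gene, belong to 4 members whose mRNA was higher in the stem and progenitor populations (Slc2a1, Bnip3, Ankrd37 and Slc16a1) and 4 in which it was lower (Car9, Vegfa, Egln3 and Pfkfb3). Capitals mark the core, which reads CACGT where it lies on the opposite strand. Where a core reads CACGTG it counts on both strands.
Slc2a1 chr4:119108699-119108723: cccgccccggACGTGctccccaggc
Bnip3 chr7:138909599-138909623: cacgcgccgcACGTGccacacgctc
Ankrd37 chr8:45999842-45999866: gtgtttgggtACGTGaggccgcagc
Slc16a1 chr3:104638455-104638479: gcgccgggtcACGTGgcgggaaggg
Car9 chr4:43506998-43507022: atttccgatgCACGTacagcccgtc
Vegfa chr17:46025360-46025384: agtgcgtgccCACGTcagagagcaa
Egln3 chr12:54204089-54204113: tgcatctcagACGTGagatccaggt
Pfkfb3 chr2:11502128-11502152: ccttctctccACGTGaaagggggct
Slc2a1, Slc16a1 and Car9 lie on the plus strand of the genome and the other 5 genes on the minus strand. The windows of Vegfa, Pfkfb3 and Ankrd37 belong to starts inside the gene models, whose 5' ends are at 46032369, 11554077 and 46005707. For Vegfa this was the only match in its 2 listed promoters, while Pfkfb3 had a further match at 11553975-11553999. The core was in 12 of the 17 members that were higher in stem and progenitor populations, in 5 of the 7 lower members with a listed promoter and in 4 of the 7 others with one. A match describes letters in a window and is no evidence of binding.

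Across the 8 WT populations edgeR's quasi-likelihood test called 27 of the 34 members different in mRNA (adjusted p under 0.05), against 40.1% of all genes tested. Between the populations with the highest and the lowest mean, the fold was 1.67 for Gapdh, the glyceraldehyde phosphate dehydrogenase often used as a loading control, and 20.2 for Aldoc, an aldolase, with a median of 3.11 over the 34. HEC had the highest mean for 14 members, BCSP for 8, pre-BCSP for 4, PCP for 3, SSC for 3 and THY for 2. Of the 561 pairs of members, 361 had a positive Spearman correlation over the 8 population means, with a median of 0.262. Among the 105 pairs of the 15 glycolytic enzymes from Hk1 to Pkm the median was 0.548 and 85 were positive. These 8 points share their normalization and 2 libraries each, so they are a description.

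Between the stem and progenitor populations and the downstream ones, 17 members were higher in the former (23.1% of all genes tested were) and 9 were lower (28.3% of all genes), so 26 differed either way (51.4% of all genes). The median difference of the 34 members was 0.36 on the log2 scale, against -0.11 over all genes. The 17 higher members hold 5 of the 7 upper glycolysis enzymes and all 3 pyruvate and lactate enzymes, and the 9 lower members hold both HIF alpha subunits and both phosphofructokinase 2 regulators. In 6 of the 11 roles the 2 directions did not both occur, while glucose transporters, lower glycolysis, prolyl hydroxylases, further targets and carbonic anhydrases each had members that went either way. In 8 members every one of the 6 stem and progenitor libraries was above every one of the 10 downstream libraries (7.71% of all genes), and in 0 members every one was below (8.72% of all genes).

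**Figure D1:**
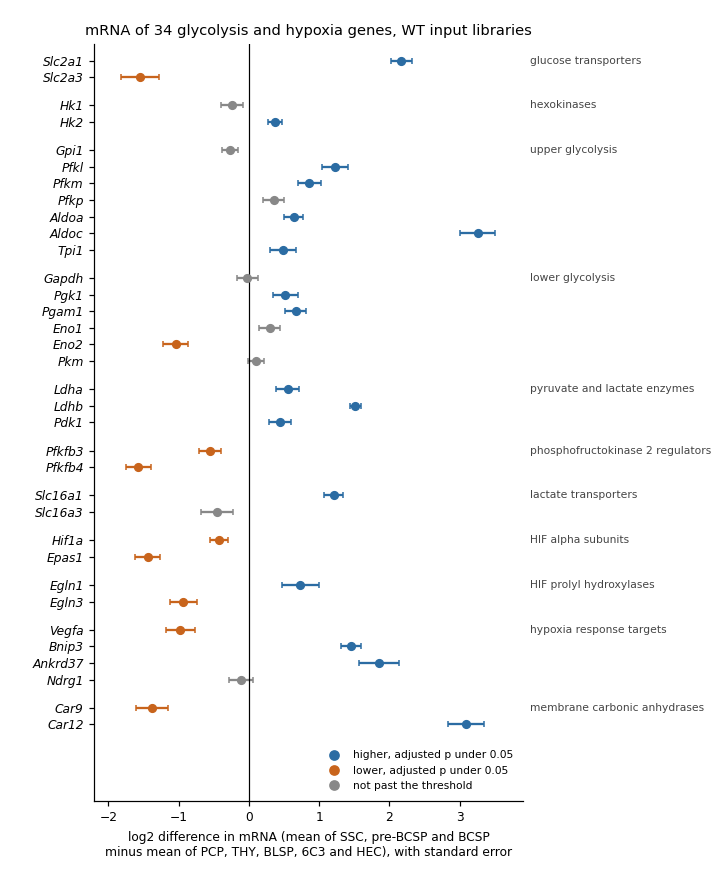
Points give the log2 difference in mRNA between the mean of SSC, pre-BCSP and BCSP and the mean of the 5 downstream WT populations for the 34 members in order of role, and bars the standard error from edgeR. Aldoc, Car12 and Slc2a1 lie farthest to the right and Pfkfb4 and Slc2a3 farthest to the left.

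The glucose transporters went opposite ways. Slc2a1 (GLUT1), the widespread basal glucose importer, was at 337 and 208 CPM in SSC, 362 and 243 in pre-BCSP, and 296 and 243 in BCSP. Downstream, PCP had 39.7 and 41.9, THY 65.9 and 48.0, BLSP 44.3 and 34.4, 6C3 57.5 and 104, and HEC 134 and 124. The 6 stem and progenitor libraries were thus all above the 10 downstream ones, with a log2 difference of 2.17 (SE 0.149, adjusted p = 1.07e-08 by edgeR). Slc2a3 (GLUT3), a high-affinity transporter known from neurons, was at 2.11 to 8.78 CPM in stem and progenitor libraries (median 6.75) and at 7.75 to 51.5 in downstream ones (median 20.1). Its levels in HEC, 7.75 and 8.20, lay among those of SSC. Its highest were the 51.5 and 33.7 of PCP, where endothelial and stromal markers were also highest. The part of such cells in the Slc2a3 values was not tested. The log2 difference was -1.55 (SE 0.269, adjusted p = 0.000164). Per exon length, Slc2a3 made up 1.38% ± 0.243 (SD, n = 2) of the summed level of both transporters in SSC, 33.3% ± 7.46 in PCP and 2.91% ± 0.279 in HEC.

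The first steps of glycolysis, which trap and rearrange glucose, were divided. Hexokinase 1 (Hk1) did not pass the test (log2 difference -0.24, SE 0.160, adjusted p = 0.227), while Hk2, the inducible hexokinase, was higher by 0.37 (SE 0.103, adjusted p = 0.00686). The Hk2 libraries overlapped, with 121 to 138 CPM in stem and progenitor populations and 141 and 145 in THY, against 63.2 and 94.7 in 6C3. Hk1 made up 28.4% ± 1.19 of the summed hexokinase level per exon length in BCSP and 59.7% ± 3.06 in HEC (SD, n = 2 each). Gpi1, which turns glucose 6-phosphate into fructose 6-phosphate, had a log2 difference of -0.27 (SE 0.116, adjusted p = 0.0619).

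Phosphofructokinase, the committed step, has 3 subunit genes. Pfkl, the liver-type subunit, was at 165 to 344 CPM in stem and progenitor libraries (median 260) and at 42.3 to 199 in downstream ones (median 106), a log2 difference of 1.23 (SE 0.189, adjusted p = 5.28e-05). Pfkm, the muscle-type subunit, was at 15.3 to 24.9 and 6.14 to 13.6 CPM, so the groups did not overlap, with a log2 difference of 0.86 (SE 0.163, adjusted p = 0.000363). The skeletal muscle markers stood apart the same way, and their part in the Pfkm values was not tested. Pfkp, the platelet-type subunit, missed the threshold at 0.35 (SE 0.143, adjusted p = 0.0504). Reads of Pfkm and Pfkp cannot be told apart from those of the overlapping genes Senp1 and Pitrm1 if counting ignored strand, which the sources do not state. Pfkl was the largest share of the summed level per exon length in every population, from 57.5% ± 3.97 in BLSP to 78.0% ± 0.163 in BCSP (SD, n = 2 each).

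Aldolase, which splits the 6-carbon sugar, showed the largest difference of the 34. Aldoc was at 41.2 and 23.3 CPM in SSC, 68.7 and 19.0 in pre-BCSP, and 83.9 and 47.8 in BCSP. All 10 downstream libraries lay between 2.87 and 7.11 CPM. The log2 difference was 3.26 (SE 0.248, adjusted p = 3.16e-08), and the 2 pre-BCSP libraries differed from each other more than those of any downstream population. Aldoa, the major isoform, was higher by 0.64 (SE 0.138, adjusted p = 0.0011) with overlapping libraries, and by mean HEC lay above SSC. Aldoc made up 5.49% ± 1.10 of the summed level per exon length in SSC, 8.70% ± 0.625 in BCSP and 0.748% ± 0.156 in THY (SD, n = 2 each). Tpi1, triose phosphate isomerase, was higher by 0.49 (SE 0.185, adjusted p = 0.0364), with libraries at 239 to 520 CPM in stem and progenitor and 129 to 447 in downstream populations. The highest mean of Tpi1 was in HEC, at 430 CPM.

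In lower glycolysis, which yields ATP and pyruvate, 2 of the 6 members were higher, 1 was lower and 3 did not pass the test. Gapdh had a log2 difference of -0.02 (SE 0.150, adjusted p = 0.941), Eno1, the main enolase, 0.30 (SE 0.150, adjusted p = 0.112) and Pkm, pyruvate kinase, 0.10 (SE 0.113, adjusted p = 0.474). Their levels were 196 to 446 CPM for Gapdh, 983 to 2495 for Eno1 and 645 to 1241 for Pkm over the 16 WT libraries. Pgk1 (phosphoglycerate kinase) and Pgam1 (phosphoglycerate mutase) were higher by 0.52 (SE 0.175, adjusted p = 0.0205) and 0.67 (SE 0.151, adjusted p = 0.00161). By mean, Pgk1 in HEC was below BCSP alone, and Pgk1 in SSC lay below HEC, 6C3 and THY. Eno2, the enolase known from neurons, was the single member of this role that was lower, at 4.23 to 10.1 CPM in stem and progenitor libraries and 9.07 to 19.4 in downstream ones (log2 difference -1.04, SE 0.180, adjusted p = 0.000155). It made up at most 1.53% ± 0.457 of the summed enolase level per exon length, in BLSP, followed by 1.45% ± 0.398 in PCP (SD, n = 2 each). BLSP and PCP also had the highest sums of neuron and glia markers. The highest mean Eno2 level was in HEC, where those markers summed to 3.66 and 4.87 CPM. Their part in the Eno2 values was not tested. Several of these genes, Gapdh, Pgk1, Pgam1, Eno1, Aldoa, Ldha, Tpi1 and Pkm, have near-identical pseudogene copies, and reads that the counting could not place on a single copy make their levels uncertain. Hk1, Tpi1, Gapdh and Hif1a also share exon sequence with genes on the opposite strand.

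At the branch to lactate all members were higher. Ldhb, the lactate dehydrogenase subunit that favours lactate use, was at 194 and 180 CPM in SSC, 132 and 129 in pre-BCSP, 144 and 157 in BCSP, and at 23.4 to 81.3 in the 10 downstream libraries (median 68.0). Its replicates lay close together and the groups did not overlap, which gave a log2 difference of 1.52 (SE 0.0847, adjusted p = 1.1e-09), the smallest adjusted p of the 34. Ldha, the subunit that favours lactate formation, was higher by 0.56 (SE 0.164, adjusted p = 0.00976) with overlapping libraries. By mean, Ldha in HEC lay below SSC and above pre-BCSP. Per exon length, Ldhb made up 28.8% ± 2.74 of the summed level in SSC, 23.7% ± 4.65 in BLSP and 5.74% ± 0.853 in THY (SD, n = 2 each), so BLSP lay among the stem and progenitor populations. Pdk1, the kinase that holds pyruvate back from mitochondria, was higher by 0.44 (SE 0.152, adjusted p = 0.0232). By mean, Pdk1 in HEC lay below pre-BCSP and above SSC and BCSP.

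Lactate leaves or enters cells through the monocarboxylate transporters. Slc16a1 (MCT1), which carries lactate both ways, was at 63.9 to 116 CPM in stem and progenitor libraries (median 84.7) and at 28.8 to 56.4 in downstream ones (median 36.5), without overlap (log2 difference 1.21, SE 0.135, adjusted p = 1.93e-06). Slc16a3 (MCT4), the exporter of highly glycolytic cells, did not pass the test at -0.45 (SE 0.226, adjusted p = 0.110) and was highest in HEC, at 190 and 180 CPM. Slc16a1 made up 69.1% ± 2.68 of the summed level per exon length in SSC, 52.9% ± 1.10 in BCSP and 25.2% ± 0.694 in HEC (SD, n = 2 each).

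The regulators that set fructose 2,6-bisphosphate, an activator of phosphofructokinase, were both lower. Pfkfb4 was at 4.07 to 13.8 CPM in stem and progenitor libraries (median 7.17), 13.7 to 16.8 in PCP, THY and BLSP, 35.1 and 43.8 in 6C3, and 45.9 and 46.0 in HEC. The single stem and progenitor library that reached the downstream range was an SSC library, with 13.8 CPM. The log2 difference was -1.58 (SE 0.177, adjusted p = 2e-06). Pfkfb3, the isoform with high kinase activity, had a log2 difference of -0.55 (SE 0.156, adjusted p = 0.00791), with its highest levels in PCP at 254 and 128 CPM. Pfkfb4 made up 12.4% ± 2.03 of the summed level per exon length in BCSP, 14.9% ± 10.3 in SSC, 12.2% ± 5.15 in PCP, 18.6% ± 3.19 in BLSP and 38.5% ± 4.80 in HEC (SD, n = 2 each), so PCP and BLSP lay among or near the stem and progenitor populations.

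**Figure D2:**
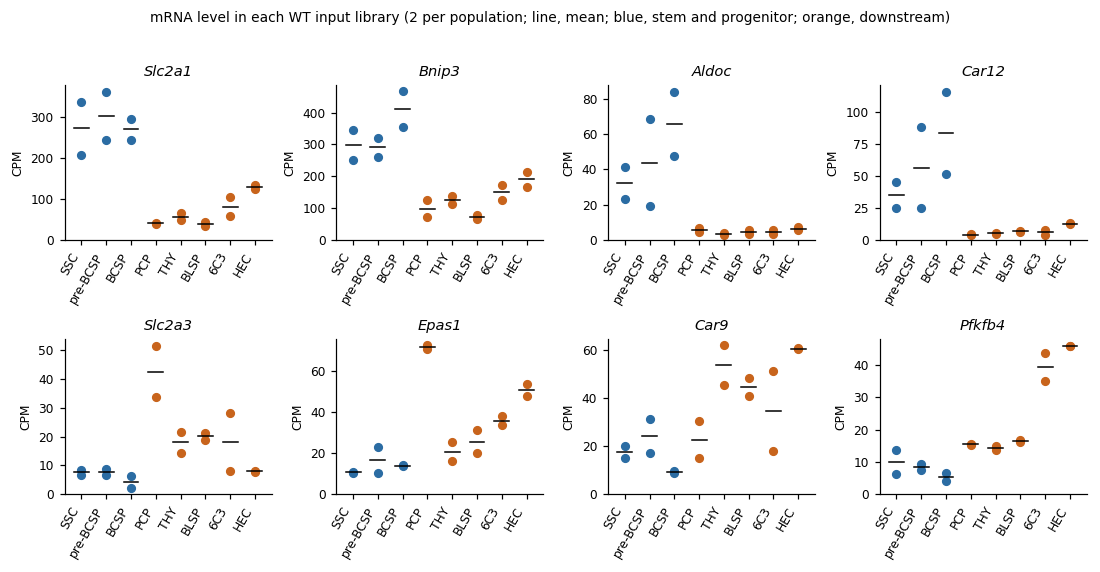
Each point is the mRNA level in CPM of a WT input library, with 2 libraries for each of 8 populations and a line at their mean. Slc2a1, Bnip3, Aldoc and Car12 in the upper row are above all downstream libraries in the 6 stem and progenitor libraries, and Slc2a3, Epas1, Car9 and Pfkfb4 in the lower row overlap.

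Both HIF alpha subunits were lower in the stem and progenitor populations. Hif1a, the main oxygen-labile subunit of chondrocytes, was at 281 to 371 CPM there (median 328) and at 293 to 760 downstream (median 400), with HEC at 760 and 687, so the log2 difference of -0.42 (SE 0.128, adjusted p = 0.0121) came with overlap. Epas1 (HIF2 alpha), known from endothelium and from hypertrophic cartilage, was at 10.5 to 23.2 CPM and 16 to 72.5 CPM, a log2 difference of -1.44 (SE 0.177, adjusted p = 5.39e-06). Its highest libraries were those of PCP, at 72.5 and 70.6 CPM, and it stayed lower without PCP. Epas1 was 3.15% ± 0.349 of the summed level of both subunits per exon length in SSC and 18.5% ± 2.71 in PCP (SD, n = 2 each).

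Of the prolyl hydroxylases that target them, Egln1 (PHD2), the main oxygen sensor, was higher and Egln3 (PHD3), itself a HIF target, was lower. The Egln1 libraries held 9.14 and 9.59 CPM in SSC, 6.06 and 5.49 in pre-BCSP, 18.5 and 4.37 in BCSP, and 3.68 to 8.75 downstream. The BCSP replicates thus spanned nearly the whole range, and the log2 difference of 0.73 (SE 0.259, adjusted p = 0.0263) fell to 0.27 without BCSP replicate 1 (adjusted p = 0.323). Egln3 was at 3.16 to 5.74 CPM in stem and progenitor libraries and 3.58 to 16.4 downstream, with HEC at 15.7 and 16.4 (log2 difference -0.93, SE 0.188, adjusted p = 0.000645). Egln1 made up 68.3% ± 0.172 of the summed level per exon length in SSC and 22.5% ± 9.56 in HEC (SD, n = 2 each).

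**Figure D3:**
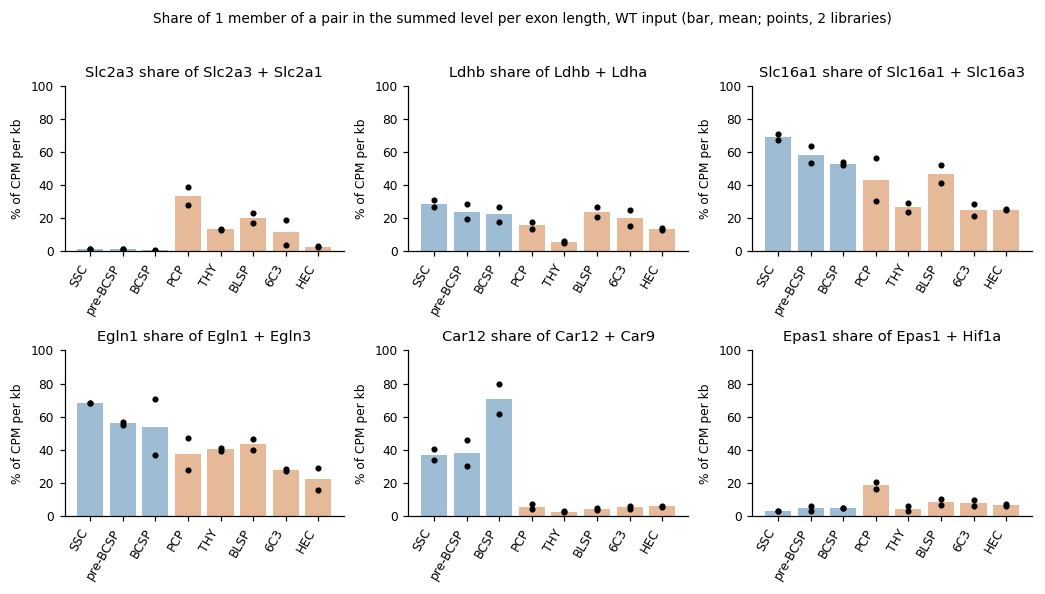
Bars give the mean share in percent of the summed level per exon length that 1 gene of a pair takes in each WT population, and points the 2 input libraries. Slc2a3 reaches 33.3% in PCP and Car12 70.7% in BCSP, while Epas1 stays at or below 18.5%.

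Among the further targets, Bnip3, a mitochondrial protein that promotes mitophagy, was at 346 and 251 CPM in SSC, 321 and 261 in pre-BCSP, 467 and 355 in BCSP, and 65.3 to 213 downstream (median 126). Its groups did not overlap (log2 difference 1.45, SE 0.139, adjusted p = 3.6e-07). Ankrd37, an ankyrin repeat protein, was at 2.96 to 6.17 and 0.626 to 1.54 CPM, also without overlap (log2 difference 1.86, SE 0.283, adjusted p = 4.85e-05). Its exons overlap those of Ufsp2 on the opposite strand, which reached 4326 counts in a library, so its low level is uncertain. Vegfa, the angiogenic growth factor, went the other way, at 9.74 to 20.8 CPM in stem and progenitor libraries and 11.4 to 42.4 downstream, with HEC at 41.1 and 42.4 (log2 difference -0.98, SE 0.209, adjusted p = 0.00102). Ndrg1, a stress-responsive gene, had a log2 difference of -0.12 (SE 0.169, adjusted p = 0.607).

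The membrane carbonic anhydrases, which handle the acid that glycolysis makes, went opposite ways. Car12 was at 45.0 and 25 CPM in SSC, 88.6 and 24.8 in pre-BCSP, 116 and 51.7 in BCSP, and 3.92 to 13.5 in the 10 downstream libraries. The log2 difference was 3.09 (SE 0.254, adjusted p = 6.79e-08) without overlap. Car9, a HIF target used as a marker of hypoxia, was at 8.90 to 31.4 and 15.1 to 62.1 CPM (log2 difference -1.38, SE 0.227, adjusted p = 0.000102). Car12 made up 37.1% ± 4.94 of the summed level per exon length in SSC, 38.3% ± 11.0 in pre-BCSP, 70.7% ± 12.9 in BCSP and 2.78% ± 0.0368 in THY (SD, n = 2 each), so Car9 was the larger share except in BCSP. Car9 exons overlap an antisense gene that reached 155 counts.

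Of the 26 calls between stem and progenitor and downstream populations, none turned direction under any alternative run, and the calls lost under at least 1 of them were those of Tpi1, Pdk1, Pgk1 and Egln1. Tpi1 was lost without any of 8 libraries, Pdk1 without any of 4, and Pgk1 and Egln1 without any of 3, at adjusted p values of 0.051 to 0.323. Without pre-BCSP replicate 1 the log2 difference was 0.32 for Tpi1 and 0.31 for Pgk1. Without the PCP libraries, an alternative chosen after their endothelial markers were seen, 14 members were higher and 11 lower, the calls of Tpi1, Pgk1 and Egln1 being lost and Gpi1 and Slc16a3 being called lower. Of 48 other genes of these pathways, 47 were tested, 17 were higher and 11 lower. The 3 with the smallest p among the higher were Stc2, a secreted glycoprotein induced by hypoxia (log2 difference 4, adjusted p = 6.06e-11), Ak4, a mitochondrial adenylate kinase (1.66), and Pygl, a glycogen phosphorylase (1.41). Among the lower they were Angptl4, an inhibitor of lipoprotein lipase (-1.41), Lox, a collagen crosslinking enzyme (-1.94), and Pdp1, a pyruvate dehydrogenase phosphatase (-1.41).

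The ratio of IP to input reads the m6A enrichment of a transcript against all others in its libraries. By the rule of the study's methods, a gene was m6A-tagged at a log2 ratio above 1 with an unadjusted p under 0.05. Few members met it. SSC had 1 (10.4% of all genes tested), pre-BCSP 2 (12%), BCSP 1 (6.67%), PCP 2 (10.6%), THY 2 (12.4%), BLSP 2 (12.4%), 6C3 3 (14.5%) and HEC 2 (13.5%). Over all 8 populations these were only 3 genes, Vegfa, Egln1 and Hk2.

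Vegfa was tagged in all 8 populations. Its log2 ratio was 2.89 and 2.54 in the SSC replicates, 2.93 and 2.80 in pre-BCSP, and 1.70 and 2.25 in BCSP. Downstream, PCP had 2.05 and 1.13, THY 2.38 and 1.94, BLSP 1.70 and 2.29, 6C3 1.68 and 1.5, and HEC 2.03 and 1.67. All 16 replicates were above 1, and in 7 populations the adjusted p was also under 0.05, PCP being the exception. Without PCP input replicate 1 the ratio of Vegfa in PCP was 0.89 and no longer met the rule. Egln1 was tagged in 6, with ratios of 2.33 to 3.23 in the replicates of pre-BCSP and the 5 downstream populations, and not in BCSP (1.39 and 1.80) or in SSC (1.76 and 0.24), where the replicates disagreed. With the replicate number as a block, which pairs the IP and input of a sort, Egln1 was also tagged in BCSP, which made 2 members there. Hk2 was above the limit in 6C3 (log2 ratio 1.21, with replicates at 1.54 and 0.94) and at 0.73 to 0.94 in the other 7, and was above input at an adjusted p under 0.05 in 5 of the 8. Without 6C3 input replicate 1 its ratio in 6C3 was 0.88 and no longer met the rule.

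Most members lay on the other side, with less RNA in the IP than in the input. The median log2 ratio of the 34 members was between -0.74 (SSC) and -0.42 (6C3), while the median over all genes was within 0.05 of 0 in each population. At an adjusted p under 0.05, SSC had 5 members below input (5.27% of all genes), pre-BCSP 7 (10.9%), BCSP 2 (2.31%), PCP 4 (7.48%), THY 13 (14.9%), BLSP 12 (16%), 6C3 9 (15.3%) and HEC 15 (17.8%). Above input by the same test, SSC had 1 (4.14%), pre-BCSP 3 (9.15%), BCSP 1 (0.848%), PCP 1 (4.85%), THY 3 (11.1%), BLSP 4 (11.5%), 6C3 3 (10.8%) and HEC 4 (15.4%). In all, 18 members were called below input in at least 1 population, 15 had a ratio below 0 in all 8, and 4 had one above 0 in all 8, namely Vegfa, Egln1, Hk2 and Gapdh.

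Pkm was the most even of these, below input in all 8 populations at log2 values of -1.86 to -1.59, with replicates from -2.04 to -1.52. Slc16a3 had the lowest fitted ratios, -3.44 to -2.36, and Pfkl followed at -2.85 to -2.19, each called in 6 populations. Slc16a3 was far apart in the SSC replicates, at -2.98 and -5.50. Hk1 and Pfkfb3 were called in 6 and Pfkfb4 in 5, so the hexokinases stood on opposite sides of 0.

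**Figure D4:**
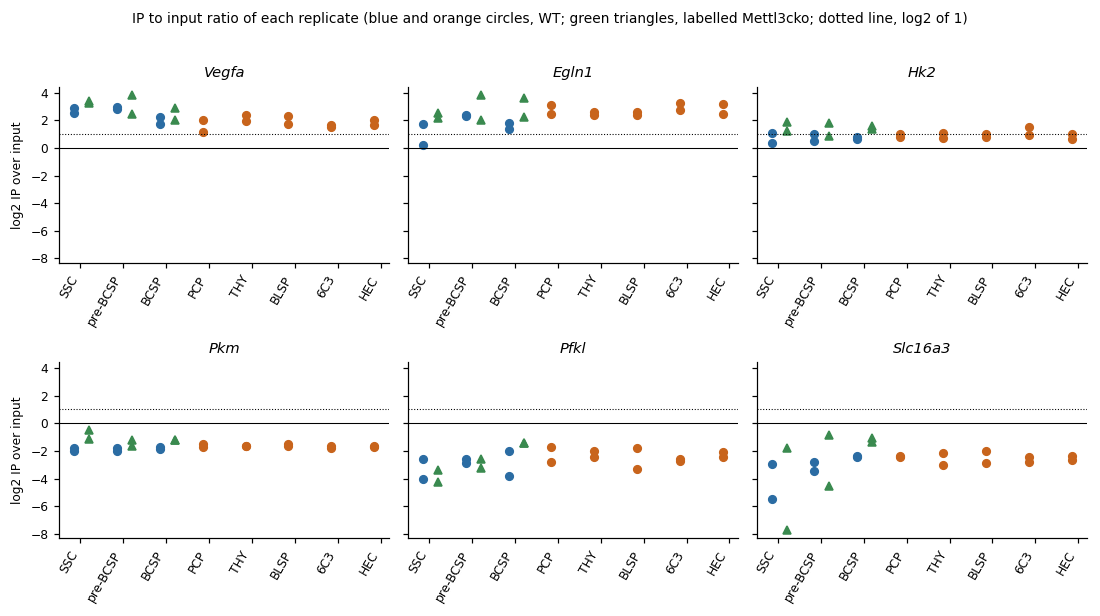
The log2 ratio of IP to input is given for each replicate of 6 members, with WT libraries as circles and libraries labelled Mettl3cko as triangles, and lines at 0 and at 1. Vegfa is above 1 in every replicate, Hk2 is close to 1 in WT, and Pkm, Pfkl and Slc16a3 are below 0 throughout.

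The ratio differed between stem and progenitor and downstream populations in 1 member. Vegfa was higher by 0.93 (SE 0.249, adjusted p = 0.0256 by edgeR), against 3.06% of all genes higher and 1.77% lower, and its mRNA was lower in the same populations. The input libraries enter both quantities. Mitochondrial genes took 1.56% to 2.92% of the counts in the 6 stem and progenitor IP libraries and 4.53% to 9.10% in the 10 downstream ones, and the part of this in the ratio was not tested. The call was lost for 7 of the 16 IP libraries when each was left out in turn, namely SSC replicate 1, both PCP replicates and replicate 1 of THY, BLSP, 6C3 and HEC, at log2 differences of 0.74 to 0.83 (adjusted p = 0.0553 to 0.0894). It was also lost with DESeq2's size factors (0.76, adjusted p = 0.0848). With the replicate block 5 members were called, of which Epas1, Gpi1, Slc2a3 and Vegfa were higher and Aldoa was lower. Among the 48 other pathway genes, Hif1an, the asparagine hydroxylase that inhibits HIF, was higher by 1.26 (adjusted p = 0.0112).

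In the libraries labelled Mettl3cko the targeted gene was read first. Mettl3 was at 15.3 and 15.5 CPM in WT SSC and 16.7 and 18.4 in Mettl3cko SSC. In pre-BCSP it was at 12.1 and 16.1 against 22.3 and 22.8, and in BCSP at 18.0 and 19.7 against 16.2 and 17.7. The counts per gene were thus not lower, with a mean log2 difference of 0.25 over the 3 populations (adjusted p = 0.362 by edgeR), and they do not show whether the floxed exon is missing. The paper reports the loss of Mettl3 by qRT-PCR and, in SSC, by western blot. It also reports less m6A by dot blot, and lower m6A levels in SSC, pre-BCSP and BCSP. Directions below are of the libraries labelled Mettl3cko against WT.

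At an adjusted p under 0.05, 0 members changed in mRNA in SSC, in pre-BCSP or in BCSP by edgeR, where 0% of all genes passed in each. DESeq2 called 1 in SSC and 0 in the other 2 populations. A comparison of 2 libraries with 2 cannot reach a permutation p under 0.05. By the rule of the study's methods (log2 beyond 0.5 at an unadjusted p under 0.05), 3 members passed in SSC (14% of all genes), 3 in pre-BCSP (8.36%) and 4 in BCSP (12.9%). In SSC they were Egln1 (-0.86), Gapdh (-0.85) and Tpi1 (-0.74). In pre-BCSP they were Pdk1 (-0.93), Pfkfb3 (-0.63) and Slc2a3 (0.94), and in BCSP Egln3 (-1.78), Gapdh (-0.72), Hk1 (0.66) and Pfkp (0.69). Gapdh was the only member that passed in more than 1 population. Of these 10 values only that of Gapdh in SSC met the rule under each of the 10 alternatives run. Without WT BCSP replicate 1 Gapdh in BCSP was at -0.25, without WT SSC replicate 1 Tpi1 in SSC was at -0.45, and without Mettl3cko BCSP replicate 1 Egln3 in BCSP was at -1.13.

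Averaged over the 3 populations, 0 members passed at an adjusted p (6.48% of all genes did), and 7 were lower (11.7% of all genes) and 0 higher (10.7%) at an unadjusted p under 0.05. Gapdh was at 311 and 254 CPM in WT SSC against 142 and 171, at 367 and 196 in pre-BCSP against 214 and 220, and at 446 and 251 in BCSP against 221 and 201. The pre-BCSP libraries overlapped and the others did not, and the mean log2 difference was -0.64 (SE 0.176, adjusted p = 0.0516 by edgeR). Tpi1 followed at -0.58 (SE 0.182, adjusted p = 0.0824), Pdk1 at -0.51, Hk2 at -0.43, Gpi1 at -0.34, Hif1a at -0.30 and Egln1 at -0.73. DESeq2 called Gapdh and Tpi1, as did edgeR with the replicate block. Gapdh, Tpi1 and Pdk1 kept an unadjusted p under 0.05 in all 17 alternatives, while Hk2 lost it in 3, Gpi1 in 6, Hif1a in 7 and Egln1 in 11. Without WT BCSP replicate 1 Egln1 was at -0.27.

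Hk2 was the single member in which both Mettl3cko libraries lay below both WT libraries in all 3 populations (4.99% of all genes). It was at 129 and 127 CPM in WT SSC against 117 and 114, at 121 and 123 in pre-BCSP against 51.7 and 97.0, and at 138 and 122 in BCSP against 70.5 and 119. In any population alone, both libraries stood apart from both WT libraries in 10 members in SSC (47.7% of all genes), 11 in pre-BCSP (41.5%) and 15 in BCSP (45.6%). The effect did not differ between the populations in any member at an adjusted p, and 2 members, Hk1 and Pfkfb3, passed at an unadjusted p under 0.05 (4.5% of all genes). Erythroid markers summed to 9.63 to 50.8 CPM in the Mettl3cko input libraries, above the 0.702 to 5.64 of WT, and their part in these values was not tested. Of the other pathway genes, Pdp1 was higher (0.91, adjusted p = 0.0161) and Bnip3l, a mitophagy receptor (-0.50, adjusted p = 0.0187), and Plod2, a collagen lysyl hydroxylase (-0.45, adjusted p = 0.0255), were lower.

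**Figure D5:**
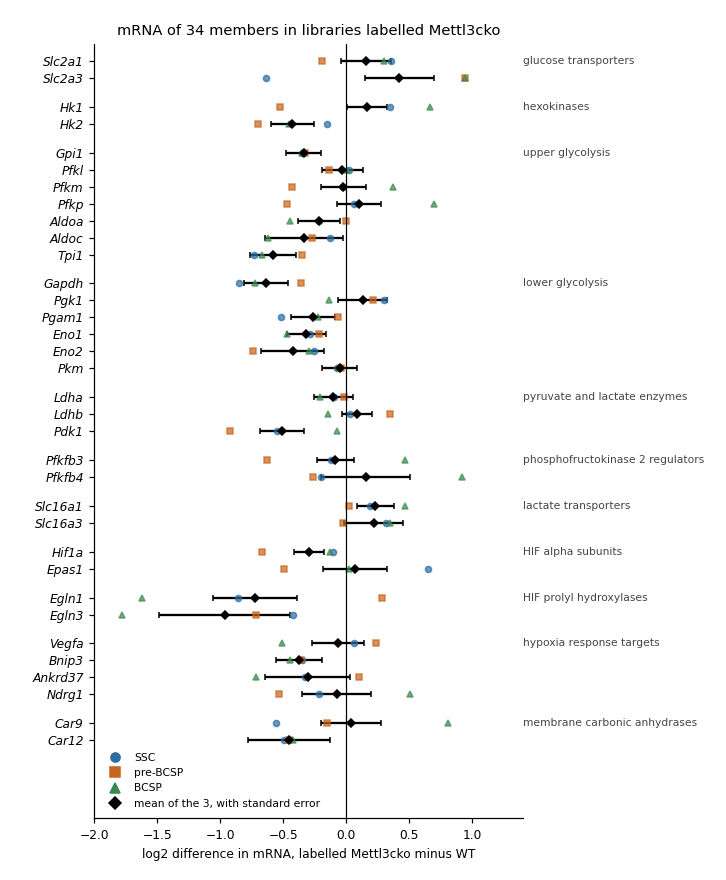
Coloured points give the log2 difference in mRNA between libraries labelled Mettl3cko and WT in SSC, pre-BCSP and BCSP for the 34 members, and black diamonds their mean with its standard error. No member passed an adjusted p of 0.05, and the mean of Gapdh is at -0.64.

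The ratio of IP to input changed in 0 members at an adjusted p in edgeR, in any population or in their mean (3.94% of all genes in the mean). The ratio is read against all other transcripts of a library, so a loss of m6A common to all would not appear in it. At an unadjusted p under 0.05, 8 passed in SSC (14.5% of all genes), 3 in pre-BCSP (11.9%), 1 in BCSP (10.3%) and 13 in the mean (17%), of which 6 were higher and 7 lower. DESeq2 called 4, 3, 1 and 6 at its adjusted p. The median of the members was 0.29 in the mean and that of all genes -0.39. Pkm was higher by 0.74 (SE 0.229, adjusted p = 0.0822) and was called with the replicate block, at -1.62 to -0.48 in the 6 Mettl3cko replicates against -2.04 to -1.74 in WT.

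In the libraries labelled Mettl3cko, 3 members were m6A-tagged in SSC (8.41% of all genes), 4 in pre-BCSP (8.04%) and 3 in BCSP (8.7%). These counts follow the study's rule with an unadjusted p. With an adjusted p under 0.05 by edgeR in its place, 0 members were tagged in each of these populations. Vegfa had log2 ratios of 3.42 and 3.27 in SSC, 3.86 and 2.46 in pre-BCSP, and 2.86 and 2 in BCSP, and was tagged in all 3. Egln1 had 2.53 and 2.14, 2 and 3.82, and 3.64 and 2.25, and was tagged in the latter 2. Hk2 had 1.85 and 1.26, 1.83 and 0.87, and 1.55 and 1.36, and was tagged in all 3, while Gapdh was tagged in SSC and pre-BCSP. The 3 genes tagged in WT were thus above input in every replicate labelled Mettl3cko.

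Of the 7 members with a lower ratio in the mean, 5 (Ankrd37, Car12, Car9, Egln3 and Pfkfb4) had IP counts at or near 0 in at least 1 of these libraries. Bnip3 (log2 difference -0.79) had 1329 to 6205 IP counts and Slc2a3 (-1.90) had 7 to 297. Among members with at least 50 input counts, each of the 6 Mettl3cko IP libraries held 1 to 4 with at most 3 IP counts, which made 17 cases in 6 genes, Ankrd37, Pfkfb4, Car12, Egln3, Eno2 and Car9. None of the 16 WT IP libraries held such a member, and the lowest count of a member there was 10. Ankrd37 had 0 counts in both SSC libraries and Pfkfb4 0 in both pre-BCSP libraries, so no fold is given for them. The same pattern ran over all genes, with 12.9% to 25.2% of those with at least 50 input counts at 3 IP counts or fewer in Mettl3cko against 0.576% to 5.45% in WT. The IP libraries held 10823 to 12879 genes above 3 counts in Mettl3cko and 14979 to 23674 in WT, and the part of this in the ratios was not tested.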

How the data were processed

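The 44 libraries are SLIM-seq IP and input libraries of sorted skeletal populations. The authors trimmed reads with fastp 0.20.1, aligned them to GRCm38 with HISAT2 2.2.1, counted them per gene with featureCounts 2.0.1 and deposited whole-number counts without normalization (tools per the submitters' processing notes). The strand setting of the counting is not given in the sources used here. The authors also deposited 2 tables of their own comparisons, which hold log2 fold changes and p-values and were not used. Of 46959 entries, the 128 named 1-Mar or 2-Mar, gene symbols turned into dates, were left out, which left 46831. Gene positions and exon lengths are those of GENCODE vM21, where Aldoa has 2 models that were merged.

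Counts were tested with edgeR 4.0.16 (quasi-likelihood F test, TMM, filterByExpr, R 4.3.3, limma 3.58.1, data.table, version 1.17.8), fitted over all genes, with Benjamini-Hochberg adjusted p-values and standard errors taken as the log2 difference over the square root of F. CPM were scaled by TMM, with a prior count of 2 for log2 values. Populations were compared over the 16 WT input libraries as the mean of 3 against the mean of 5, ratios of IP to input as an interaction, and genotypes within SSC, pre-BCSP and BCSP and over their mean. All 34 members are named by rule, of the other 48 pathway genes up to 3 with the smallest p in each direction. The members, lists and tests were chosen with earlier results of these data known. Alternatives were DESeq2 1.42.0, scaling by its size factors or by library size alone, keeping low counts, a replicate block, a pooled fit over 22 input libraries and leaving out each library. An adjusted p that DESeq2 gives as NA was kept as NA. The fits were tested on simulated data.

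IP and input libraries of 1 replicate number are pairs, because the study's methods divide the sorted cells of a batch between them. The main tests of IP against input and of the ratio did not use these pairs, while the replicate block did. Over genes, replicate differences in IP and in input had correlations of 0.0378 to 0.426 in WT and 0.0616 to 0.0816 in Mettl3cko. Between populations the same correlations were -0.394 to 0.279 and between genotypes -0.0436 to 0.0379, so numbers were not taken to pair these. The members took more of the input counts in replicate 1 than in replicate 2 of WT SSC (0.783% against 0.613%). The same held in WT pre-BCSP (0.937% against 0.628%) and BCSP (0.963% against 0.715%). Both orders occurred in the downstream populations and in Mettl3cko. With 2 libraries per group precision rests on the depths given, and counts of at most 3 were taken as the floor of detection, which covers counting error only. The plots used matplotlib 3.10.9 under Python 3.11.15. Sums of 1 further marker list are not reported here.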

Additional observations from a re-analysis of the deposited data

Results flagged for a closer look

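The IP to input ratio of Vegfa differed between the stem and progenitor populations and the downstream ones by 0.93 on the log2 scale (SE 0.249, adjusted p = 0.0256 by edgeR's interaction test). It was noted because this effect of enrichment was not the same in both sets of populations. The 6 stem and progenitor replicates had log2 ratios of 1.70 to 2.93 and the 10 downstream ones 1.13 to 2.38, so they overlapped. The call did not hold for 7 of the 16 IP libraries left out in turn.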

How the results depend on the processing

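Over the alternatives run, no named value that passed its test or rule turned direction, for mRNA and ratio differences of the WT populations, for tagged members in WT, and for the Mettl3cko differences in mRNA and in the mean ratio. With each library left out in turn, members that differed among the 8 WT populations numbered 23 to 31, those higher in stem and progenitor populations 14 to 19 and those lower 9 to 11. Tagged members then numbered 1 to 4 in SSC, 2 to 3 in pre-BCSP, 1 to 2 in BCSP, 1 to 2 in PCP, 2 to 3 in THY, 2 to 2 in BLSP, 2 to 4 in 6C3 and 2 to 3 in HEC. Members with a higher ratio in stem and progenitor populations numbered 0 to 2 and those with a lower one 0 to 3, over the 16 IP libraries. The 16 input libraries were not left out of that fit, which was not run for them. Members changed in mRNA in Mettl3cko numbered 0 to 0 in SSC, 0 to 2 in pre-BCSP, 0 to 0 in BCSP and 0 to 5 in the mean of the 3, where 5 came without Mettl3cko pre-BCSP input replicate 2. Members with a changed ratio in Mettl3cko numbered 0 to 11 in SSC, 0 to 6 in pre-BCSP, 0 to 3 in BCSP and 0 to 4 in the mean. A lone library left in a group is assumed to vary like the other groups of the fit.

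Without a filter on low counts there were 2 tagged members in SSC and 2 in BCSP, 2 with a lower ratio in stem and progenitor populations, 2 changed in mRNA in Mettl3cko SSC, 4 in the mean of the 3, and 1 and 5 with a changed ratio in Mettl3cko pre-BCSP and the mean. With DESeq2 there were 2 tagged in SSC and 2 in BCSP, 1 changed in Mettl3cko SSC and 2 in the mean, and 4, 3, 1 and 6 with a changed ratio in SSC, pre-BCSP, BCSP and the mean. DESeq2's size factors left 0 with a higher ratio. An adjusted p left 1 tagged in PCP. The replicate block, where pairs of IP and input are known only for the ratio, gave 2 tagged in BCSP, 4 higher and 1 lower ratio, 2 changed in mRNA and 1 with a changed ratio in the mean, and it changed no other count of calls by over 1.5 times. By the unadjusted rules 3, 3 and 4 members changed in mRNA, and 8, 3, 1 and 13 had a changed ratio in SSC, pre-BCSP, BCSP and the mean. The cause of these differences was not tested. Where an IP count was at or under 3, the ratio rests on the prior count. The Mettl3cko IP libraries were not shallower than those of WT, with a median of 27391296 against 23486940 counts.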
